A study of Vitis vinifera with 8 samples.

Results

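The genes described here are the core enzymes of flavonoid and anthocyanin synthesis, 9 genes listed by identifier and found among 34369 probes, 1 probe each. They comprise 3 chalcone synthase genes (CHS2, VIT_14s0068g00920; CHS, VIT_14s0068g00930; CHS3, VIT_05s0136g00260), a chalcone isomerase (CHI, VIT_13s0067g03820), a pair of flavanone 3-hydroxylases (F3H1, VIT_04s0023g03370, and a second gene called F3H here, VIT_18s0001g14310), dihydroflavonol reductase (DFR, VIT_18s0001g12800), leucoanthocyanidin dioxygenase (LDOX, VIT_02s0025g04720) and UDP-glucose:flavonoid 3-O-glucosyltransferase (UFGT, VIT_16s0039g02230). Transcript levels were read on 1-colour arrays from young leaves of in vitro plantlets of the white-berried grapevine cultivar Sultana, which were 6 weeks old according to the labels. The OXNAC33 group held 4 arrays from plantlets infiltrated with Agrobacterium tumefaciens strain C58C1 carrying the transcription factor gene VviNAC33 under the constitutive 35S promoter, and the Control group held 4 arrays from plantlets infiltrated with the same bacterium and the vector carrying a non-coding sequence. Of 8 plantlets infiltrated for OXNAC33 and 7 for Control, 4 per group were hybridized, each from a pool of apical leaves of 1 plant collected 7 days after infiltration, and the OXNAC33 plants were chosen for a high transgene level. Both groups had therefore met the bacterium, no untreated leaf was compared, and the transgene reached only the cells that were infiltrated.

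Flavonoids are made in a chain of enzymes that starts from p-coumaroyl-CoA. Chalcone synthase joins that compound with malonyl-CoA, chalcone isomerase closes the ring to give the flavanone naringenin, and flavanone 3-hydroxylase turns flavanones into dihydroflavonols. Dihydroflavonol reductase and leucoanthocyanidin dioxygenase then give anthocyanidins, to which UFGT adds a glucose, and that step makes the stable red and blue anthocyanins. In grapevine the first enzymes also feed flavonols and proanthocyanidins, which leaves and berries of every colour hold. UFGT is the step best known for separating coloured from white berry skins, because white cultivars lack the working MYB activators that switch it on in the skin.

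All 9 probes were well above background on all 8 arrays, UFGT included, so no value of these genes was a background reading, and none was marked as outlying. A level below is the log2 of the processed intensity divided by the value under which 75% of the array's probes fall, so that 0 is that 75th percentile. Probes differ in how brightly they bind, so levels are given along the pathway without ranking one gene above another. In the OXNAC33 leaves the mean levels from the first step to the last were -0.52 for CHS2, -1.33 for CHS, -0.14 for CHS3, 2.50 for CHI, -0.17 for F3H1, 0.85 for F3H, -0.51 for DFR, -0.61 for LDOX and -2.62 for UFGT. In the Control leaves these means were 0.52, -0.22, 0.53, 1.91, 0.80, 1.06, -0.24, 0.52 and -0.91 in the same gene order.

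Some facts of the arrays bear on what follows. The share of probes well above background was 73.8% to 84.1% per array, and 26579 probes passed the filter on dim probes. The highest shares, 84.0% and 84.1%, were on Control replicates 1 and 2, against 77.0% and 76.5% on OXNAC33 replicates 1 and 2. The 75th percentiles of intensity were 2768 and 2250 on these Control arrays and 1531 and 1421 on these OXNAC33 arrays. Replicates 1 and 2 of both groups were scanned on date 1, replicate 3 of both on date 2 and replicate 4 of both on date 3. VviNAC33 itself (VIT_19s0027g00230) stood at 1.15, 0.59, -0.13 and -1.14 in OXNAC33 replicates 1 to 4, against 0.14, -0.75, -1.15 and -1.37 in Control replicates 1 to 4. Its mean was 1.86-fold higher in OXNAC33, a difference that did not pass limma (log2 difference 0.90, SE 0.52, adjusted p = 0.666), although limma with a replicate block gave an unadjusted p of 0.00751. Of the 4 OXNAC33 arrays, those labelled replicates 3 and 4 had VviNAC33 levels inside the range of the Control arrays, and replicates 1 and 2 were above it. Without the array labelled replicate 4 the VviNAC33 difference was 1.32 (limma unadjusted p = 0.0188, adjusted p = 0.374), and without replicate 3 it was 0.98 (adjusted p = 0.571).

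In OXNAC33 leaves, 8 of the 9 genes had a lower mean than in Control leaves and CHI had a higher one. The median log2 difference over the 9 genes was -0.98, against 0.04 over all probes tested. The moderated test of limma with Benjamini-Hochberg adjustment called 0 of the 9 genes, with a lowest adjusted p of 0.636, and 0 of 26579 probes (0%). By a looser rule, at least 1.5 fold with p under 0.05 before adjustment, F3H1 was lower and 0 of the 9 genes were higher, where the background was 3.11% of all probes lower and 2.42% higher. At that p without a fold rule, F3H1 was again the only gene of the 9 that passed, beside 7.77% of all probes. With a replicate block, the looser rule gave 1043 probes higher and 1311 lower, against 643 and 826 without it, the adjusted threshold gave 2 probes, and the gene called lower among the 9 was UFGT in place of F3H1. In 0 of the 9 genes were the groups free of overlap, which 4.12% of all probes were.

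**Figure D1:**
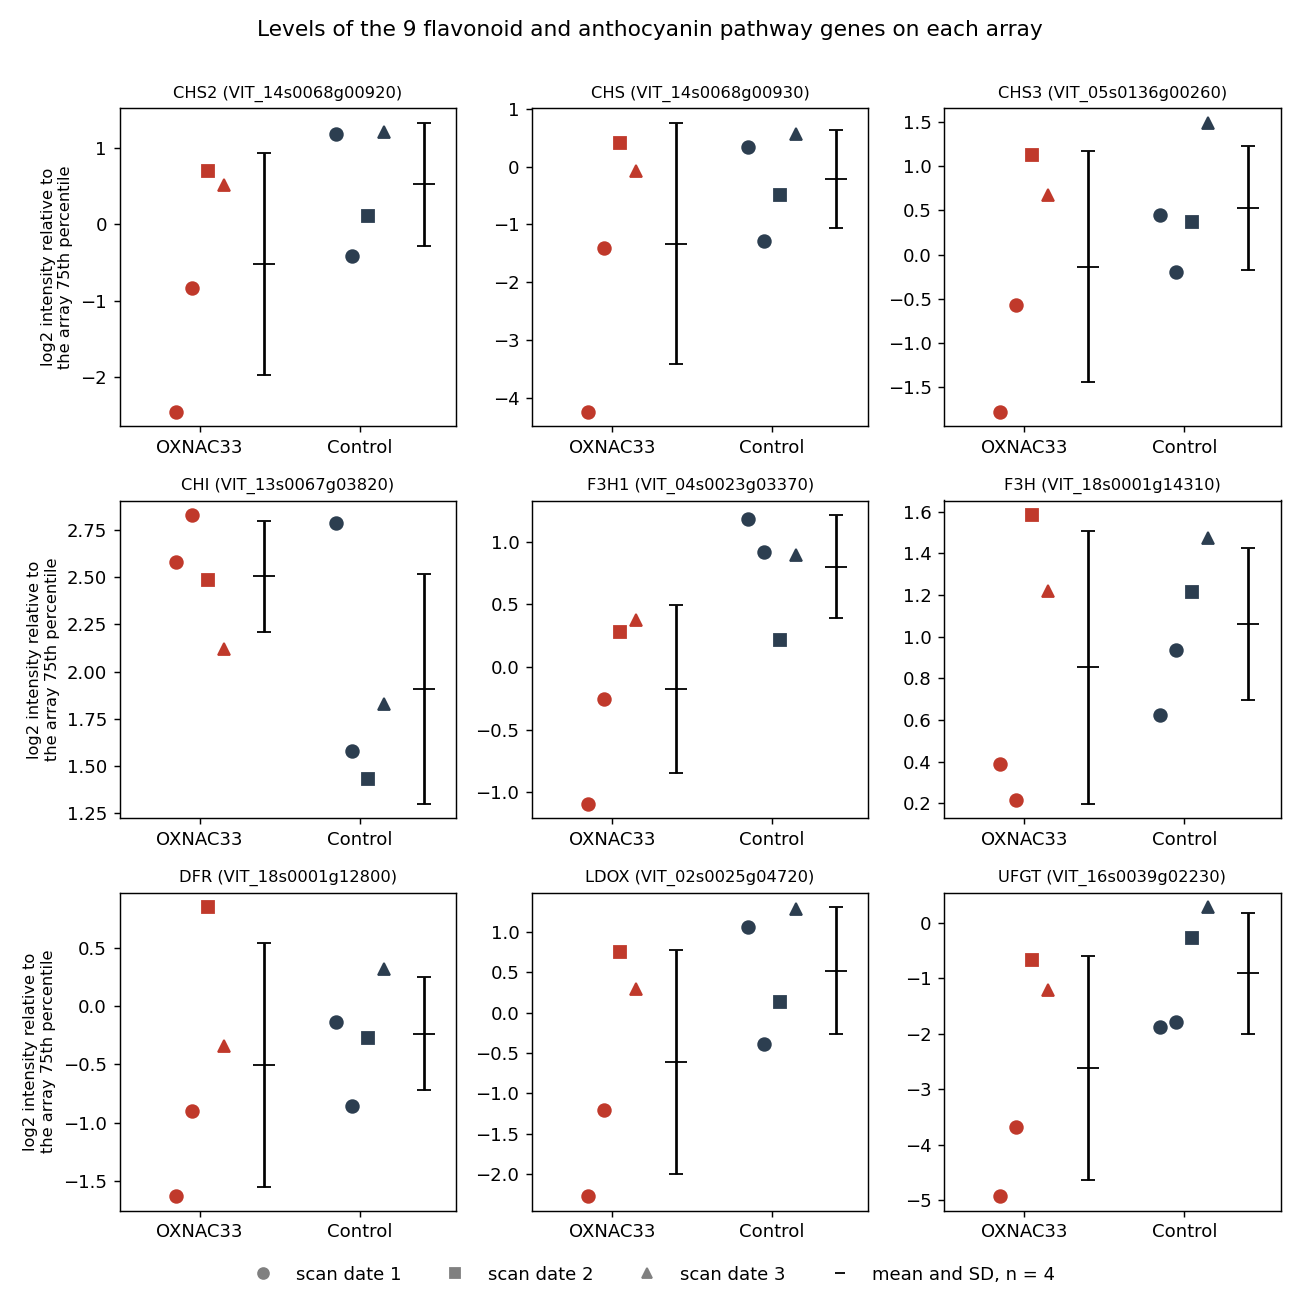
Levels of the 9 genes in pathway order, on the log2 scale relative to the array's 75th percentile (vertical axis), in OXNAC33 (red, left) and Control (dark, right). Each point is 1 array, its shape gives the scan date, and the bar gives the mean and SD of 4 arrays. For every gene but CHI the lowest point is OXNAC33 replicate 1 or 2, both of scan date 1.

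The chalcone synthases open the pathway, and all 3 varied widely between the OXNAC33 plants. CHS2 stood at -2.45, -0.83, 0.69 and 0.51 in OXNAC33 replicates 1 to 4, against 1.18, -0.41, 0.11 and 1.20 in Control replicates 1 to 4. Both OXNAC33 arrays of scan date 1 were below every Control array, whereas replicates 3 and 4 lay inside the Control range. The mean of CHS2 was 2.06-fold lower in OXNAC33, with a log2 difference of -1.04 (95% interval -2.68 to 0.60), which did not pass limma (adjusted p = 0.705) or an exact permutation test, two-sided (p = 0.257, where 4 arrays per group allow no p below 0.0286).

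The second chalcone synthase gene, CHS, had the widest range of the 9 genes across the OXNAC33 plants. Its level was -4.24, -1.41, 0.40 and -0.07 in the OXNAC33 plants and 0.33, -1.29, -0.49 and 0.57 in the Control plants, in order of replicate. The OXNAC33 arrays thus spanned 4.64 on the log2 scale and the Control arrays 1.86. The log2 difference was -1.11 (95% interval -3.31 to 1.10), the limma adjusted p was 0.748 and the exact permutation test gave p = 0.429. On the arrays of scan dates 2 and 3 alone the difference had the other sign, at 0.13.

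CHS3 had a smaller mean difference. It measured -1.78, -0.57, 1.12 and 0.67 in OXNAC33, against 0.45, -0.20, 0.37 and 1.49 in Control. The log2 difference was -0.67 (95% interval -2.14 to 0.81; limma adjusted p = 0.774; exact permutation p = 0.4). The 3 chalcone synthases are closely related in sequence, and whether each probe reads its own gene alone was not checked, since probe sequences were not used here.

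Chalcone isomerase was the exception. CHI stood at 2.58, 2.83, 2.49 and 2.12 in OXNAC33, against 2.79, 1.58, 1.43 and 1.83 in Control. All 4 OXNAC33 arrays were above 3 of the Control arrays, and the fourth, Control replicate 1, was above 3 of the OXNAC33 arrays. The mean was 1.51-fold higher in OXNAC33 (log2 difference 0.60, 95% interval -0.12 to 1.31), which did not pass limma (unadjusted p = 0.0917, adjusted p = 0.652) or the exact permutation test (p = 0.143). Without Control replicate 1 the difference was 0.89 (unadjusted p = 0.00435, adjusted p = 0.785). CHI was higher in OXNAC33 on each scan date, by 0.52, 1.05 and 0.29 on dates 1 to 3.

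The flavanone 3-hydroxylases showed unlike mean differences. F3H1 stood at -1.09, -0.26, 0.28 and 0.37 in OXNAC33, against 1.18, 0.91, 0.22 and 0.90 in Control. Every OXNAC33 array was below 3 of the Control arrays, and the groups overlapped only through Control replicate 3. The mean was 1.97-fold lower in OXNAC33 (log2 difference -0.98, SE 0.36, 95% interval -1.80 to -0.16). The unadjusted p of limma was 0.0249 and the adjusted p 0.636, and the exact permutation test gave p = 0.0857. Several settings of limma took the unadjusted p just past 0.05 with the difference little changed, namely a replicate block (difference -0.98, unadjusted p = 0.0514, adjusted p = 0.403) and leaving out OXNAC33 replicate 2 or Control replicates 1, 2 or 4 (differences -0.95 to -0.85, unadjusted p = 0.0534 to 0.0653, adjusted p = 0.722 to 0.969). With the slide as a random block the difference was -0.69 (limma unadjusted p = 0.0804, adjusted p = 0.672). The study lists F3H1 among the changed genes of these same arrays, so its place here is not independent evidence.

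The other F3H gene lay at 0.39, 0.22, 1.58 and 1.22 in OXNAC33 and at 0.62, 0.93, 1.21 and 1.47 in Control. Its log2 difference of -0.21 (95% interval -0.99 to 0.58; limma adjusted p = 0.880; exact permutation p = 0.600) was smaller than the spread within either group. The interval still allows a fall of about the size seen for F3H1, and whether the genes of this pair differed in response was not tested.

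DFR, which reduces dihydroflavonols, showed the narrowest gap between the group means after F3H. Its levels were -1.63, -0.90, 0.85 and -0.34 in OXNAC33, against -0.13, -0.86, -0.27 and 0.32 in Control. The highest and the lowest of the 8 arrays were both OXNAC33 arrays. The log2 difference was -0.27 (95% interval -1.43 to 0.89; limma adjusted p = 0.894; exact permutation p = 0.629), and without OXNAC33 replicate 1 it was 0.11.

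LDOX, the dioxygenase that forms anthocyanidins, followed the chalcone synthases array by array. It stood at -2.28, -1.21, 0.75 and 0.29 in OXNAC33, against 1.06, -0.39, 0.13 and 1.28 in Control. The mean was 2.19-fold lower in OXNAC33, with a log2 difference of -1.13 (95% interval -2.71 to 0.45). This did not pass limma (adjusted p = 0.675) or the exact permutation test (p = 0.229). It was -0.58 without OXNAC33 replicate 1 and -1.58 without OXNAC33 replicate 3 (unadjusted p = 0.0440, adjusted p = 0.481).

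UFGT, the last enzyme, had the widest mean difference of the 9 genes. Its level was -4.93, -3.67, -0.66 and -1.20 in OXNAC33, against -1.87, -1.79, -0.27 and 0.28 in Control. In processed intensity, which was not scaled between arrays, these values were 50.2, 111, 1101 and 755 in OXNAC33 and 756, 650, 1353 and 1678 in Control. The mean was 3.26-fold lower in OXNAC33 (log2 difference -1.70, SE 0.98, 95% interval -3.95 to 0.54), and neither limma (unadjusted p = 0.119, adjusted p = 0.665) nor the exact permutation test (p = 0.229) passed. UFGT was the only gene of the 9 that was lower in OXNAC33 on all 3 scan dates, with log2 differences of -2.47, -0.39 and -1.49 on dates 1 to 3. A limma fit that blocked on scan date gave an unadjusted p = 0.00717 and an adjusted p = 0.250, and with the replicate block these were 0.00874 and 0.289. The Control arrays of scan date 1 were themselves lower for UFGT than those of dates 2 and 3.

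**Figure D2:**
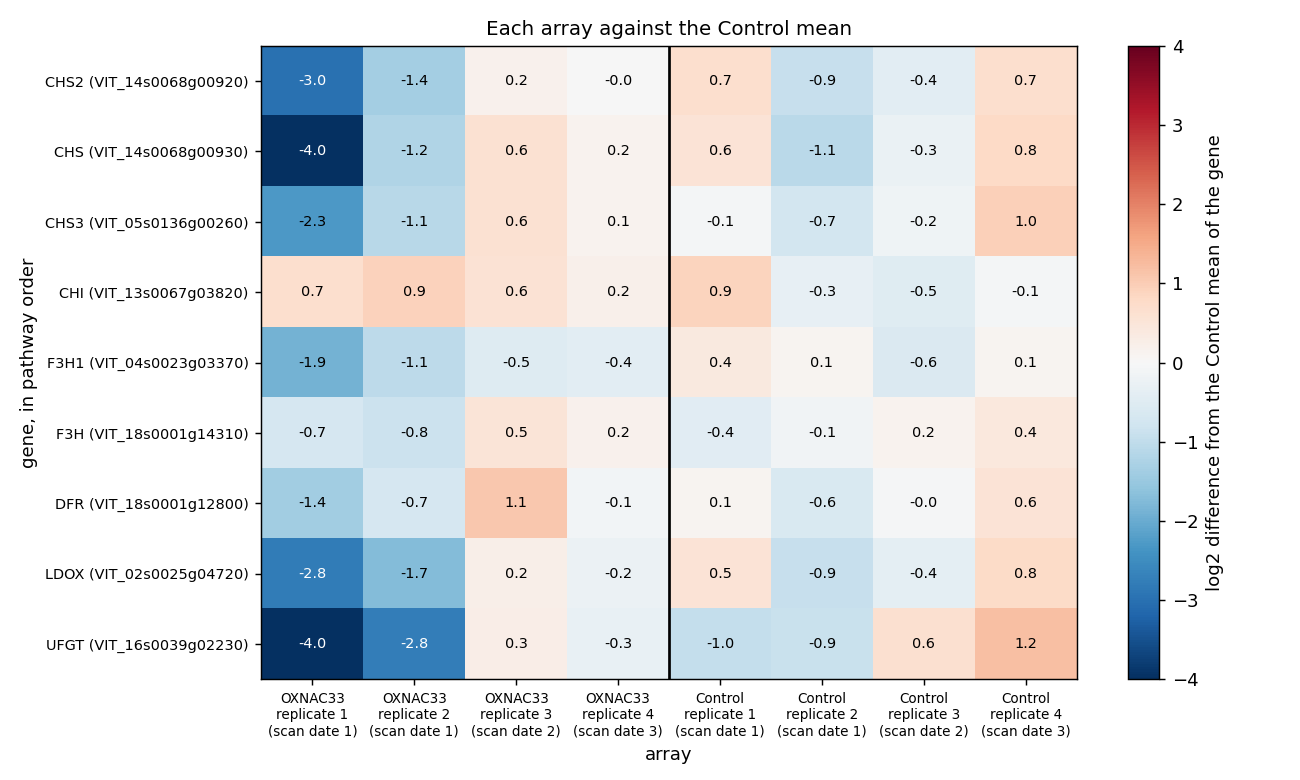
Each cell gives the log2 difference of 1 array (horizontal axis, OXNAC33 left and Control right of the line) from the Control mean of the gene (vertical axis, in pathway order); blue is lower and red higher. The deep blue block is OXNAC33 replicates 1 and 2, for every gene except CHI.

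For 8 of the 9 genes the lowest array was OXNAC33 replicate 1 or 2, which shared a slide and a scan date. OXNAC33 replicate 1 was the lowest of the 8 arrays for 7 of the 9 genes, a place it held for 14.0% of all probes tested, and OXNAC33 replicate 2 was the lowest for F3H. On OXNAC33 replicate 1 the median log2 difference of the 9 genes from the Control mean was -2.31, and on replicate 2 it was -1.10. On OXNAC33 replicates 3 and 4 these medians were 0.52 and -0.01. Both OXNAC33 replicates 1 and 2 were below all 4 Control arrays for 8 of the 9 genes, the exception being CHI, and for 13.9% of all probes tested. On OXNAC33 replicates 3 and 4, 0 of the 9 genes were below all Control arrays, beside 21.9% and 18.2% of all probes.

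Arrays 1 and 2 of OXNAC33 are also those of scan date 1, and the pattern differed between dates. Within scan date 1, both OXNAC33 arrays were below both Control arrays for 8 of 9 genes, as were 27.3% of all probes. Within scan date 2, the OXNAC33 array was above the Control array for 8 of 9 genes, all but UFGT, as were 51.7% of all probes. Within scan date 3, the OXNAC33 array was below the Control array for 8 of 9 genes, all but CHI, as were 50.7% of all probes. The median differences over the 9 genes were -1.72, 0.62 and -0.66 on dates 1 to 3, against 0.07, 0.02 and -0.01 over all probes. The arrays of scan date 1 alone, a split chosen after the values were seen, gave 2966 probes higher and 2622 lower by the looser rule. The main fit gave 643 and 826, so calls were far more common in this split. Each of its slides held 1 group, so its p-values cannot tell group from slide. Within it, LDOX was 4.21-fold lower, UFGT 5.55-fold lower and F3H1 3.30-fold lower in OXNAC33. In that order the limma unadjusted p was 0.0317, 0.00560 and 0.00667, and the adjusted p 0.165, 0.116 and 0.118. On scan dates 2 and 3 alone these differences were -0.19 for LDOX, -0.94 for UFGT and -0.23 for F3H1 on the log2 scale, all in the same direction, and UFGT alone had an unadjusted p under 0.05 in limma (0.0438, which did not pass adjustment).

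A term for the difference between scan date 1 and the later dates had an unadjusted p under 0.05 in limma for 2 of the 9 genes, F3H1 (unadjusted p = 0.0220, adjusted p = 0.484) and UFGT (unadjusted p = 0.0494, adjusted p = 0.518), as for 9.64% of all probes. The date of scanning cannot be told apart from the plants it held. OXNAC33 replicates 1 and 2 also carried the highest VviNAC33 levels of the group, and the part of VviNAC33 dose or of scan date was not tested. Slide and group cannot be told apart on scan dates 1 and 2, where each slide held 1 group, and only the slide of scan date 3 held both. Without the array labelled OXNAC33 replicate 4, F3H1 had a log2 difference of -1.16 and UFGT of -2.18, and F3H1 remained the only gene past the looser rule (unadjusted p = 0.0158, adjusted p = 0.360).

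**Figure D3:**
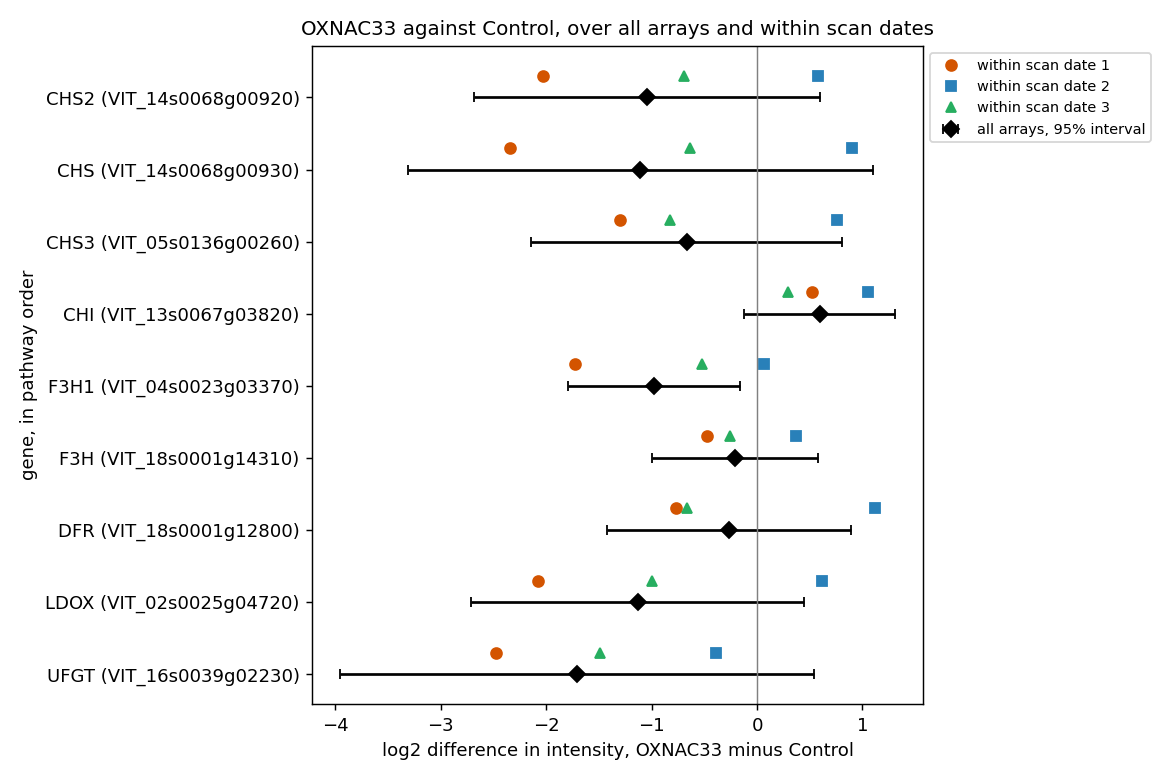
Log2 difference, OXNAC33 minus Control, for the 9 genes in pathway order. Black diamonds give the difference over all 8 arrays with its 95% interval from limma, and coloured points give the differences within scan dates 1, 2 and 3. The interval excludes 0 only for F3H1, and the scan date 2 points of 8 genes lie right of 0.

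The genes moved together from array to array. As a description, with no test, the level of each gene was correlated over the 8 arrays with the mean standardised level of the other 8 genes. Pearson's r was 0.98 for LDOX, 0.98 for CHS3, 0.97 for CHS2, 0.97 for CHS, 0.92 for DFR, 0.86 for UFGT, 0.74 for F3H1 and 0.70 for F3H, and it was -0.35 for CHI. Spearman's rho was 0.98, 0.98, 0.98, 1, 0.95, 0.76, 0.55 and 0.81 in the same order and -0.21 for CHI. Without the 2 arrays farthest from the median, which were OXNAC33 replicates 1 and 2 for every gene but F3H, r stayed at 0.84 or more for LDOX, DFR and the 3 chalcone synthases. It was then 0.38 for UFGT, -0.09 for F3H1 and 0.55 for F3H, and for CHI it turned to 0.39. The likeness of UFGT and F3H1 to the rest, and the negative r of CHI, thus rested on those 2 arrays. The points share scan dates, slides and the scaling to the 75th percentile. Whether each chalcone synthase probe reads its own gene alone was not checked. The closest pair was LDOX with CHS2 (r = 0.99).

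Outside the pathway lists, the 5 VIT probes of 24125 with the closest likeness to the mean of the 9 genes were VIT_02s0025g04540, VIT_17s0000g03190, VIT_04s0008g03930, VIT_03s0091g00430 and VIT_00s2417g00010, with r between 0.97 and 0.99 over the 8 arrays. The sources used here pair no gene name with these identifiers. Their log2 differences ran from -0.35 to -0.18 and 0 of the 5 had an unadjusted p under 0.05 in limma. OXNAC33 replicate 1 was the lowest array for all 5. That follows from the choice, because it was also the lowest array for 7 of the 9 genes they were picked to resemble. Whether so close a likeness would arise by chance among 24125 probes over 8 arrays was not tested.

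The other genes of the pathway were taken from lists of the study's annotations. The entry list holds 4-coumarate-CoA ligases, which make the p-coumaroyl-CoA that chalcone synthase uses, and 3 of its 4 genes were tested. Of these, 1 had a higher mean, 2 a lower mean and 0 were called by the looser rule. VIT_06s0061g00450 stood at 0.996, 0.64, 0.56 and 0.37 in OXNAC33, against 0.01, -0.30, 0.48 and 0.56 in Control (log2 difference 0.46, limma adjusted p = 0.652), and was thus highest on the very OXNAC33 arrays where the chalcone synthases were lowest. VIT_17s0000g01790 had a log2 difference of -0.29 (adjusted p = 0.673).

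The hydroxylases set the pattern of hydroxyl groups on the B ring, and so the hue of the pigment. All 6 were tested, and 6 had a lower mean in OXNAC33, as 45.2% of all probes did, with differences from -1.42 to -0.03. The looser rule called 2 of them lower, beside 3.11% of all probes. Of these 2, 1 was listed by the study from these same arrays and 1 passed the filter on dim probes only through the Control group. Neither is therefore independent evidence, as a call or within the count of 6 lower means. VIT_17s0000g07210, a flavonoid 3'-hydroxylase, was at -0.03 (limma adjusted p = 0.974). VIT_06s0009g03110, a flavonoid 3',5'-hydroxylase, stood at -5.47, -5.71, -6.15 and -5.82 in OXNAC33, against -5.18, -4.94, -5.42 and -4.62 in Control. The groups did not overlap, as for 4.12% of all probes. The difference was -0.75 (limma unadjusted p = 0.0104, adjusted p = 0.636, and exact permutation p = 0.0286, the smallest possible). This is the gene that the study listed. VIT_08s0007g04040, annotated as a flavonoid 3-monooxygenase, was well above background on 4 of 4 Control arrays and on 0 of 4 OXNAC33 arrays. It stood at -7.82, -7.61, -6.84 and -6.54 in OXNAC33, against -6.66, -5.69, -6.12 and -5.71 in Control (limma adjusted p = 0.636). The groups overlapped, since OXNAC33 replicate 4 was above Control replicate 1. The faintest probe counted as well above background was at -6.79 on that OXNAC33 array and at -7.97 on that Control array. With the dim arrays set no lower than the faintest such probe of each, the mean of this gene was at least 1.66-fold lower in OXNAC33.

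The 2 hydroxylases with the widest gap in means, VIT_06s0009g02880 and VIT_06s0009g02810, did not pass. VIT_06s0009g02880 stood at -4.20, -2.36, -1.59 and 0.95 in OXNAC33, against -1.24, 0.35, -0.69 and 0.05 in Control (log2 difference -1.42, adjusted p = 0.700). The lowest and the highest of its 8 arrays were both OXNAC33 arrays, replicate 1 and the array labelled replicate 4. VIT_06s0009g02810 had a log2 difference of -1.37 (adjusted p = 0.690), with the same arrays at the ends of its range.

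Of the 2 homologues of early enzymes, the chalcone isomerase homologue VIT_07s0151g01060 stood at -2.41, -2.01, -1.72 and -1.86 in OXNAC33, against -1.34, -1.56, -1.56 and -1.48 in Control. Its groups did not overlap, as for 4.12% of all probes. This homologue was lower by 0.51 on the log2 scale (limma unadjusted p = 0.0227, adjusted p = 0.636), less than 1.5 fold, whereas the mean of CHI was higher. It too was listed by the study from these arrays. VIT_02s0025g02960, annotated as a naringenin dioxygenase, was well above background on 3 Control arrays and 0 OXNAC33 arrays, so it was not tested. It stood at -8.91, -9.01, -9.15 and -7.34 in OXNAC33, against -6.86, -7.44, -5.80 and -5.95 in Control, and the groups overlapped. With the dim OXNAC33 arrays set no lower than their faintest probe counted as well above background, its mean was at least 1.33-fold lower there. On OXNAC33 replicates 1 and 2 those faintest probes were at -6.83 and -6.88. These are level with or above its Control values on scan date 1, so the bound rests on Control replicates 3 and 4.

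Glycosyl- and acyltransferases finish and store the pigments. Of 10 such genes 9 were tested, of which 5 had a higher and 4 a lower mean in OXNAC33. The flavonoid glucosyltransferase VIT_12s0034g00080 was called higher by the looser rule, as were 2.42% of all probes. It stood at 2.10, 2.31, 2.30 and 1.59 in OXNAC33, against 1.35, 0.76, 1.43 and 1.71 in Control (log2 difference 0.77, unadjusted p = 0.0163, adjusted p = 0.636), and the study had listed it from these arrays. The anthocyanin acyltransferase AnAT, VIT_03s0017g00870, stood at -5.29, -4.93, -3.42 and -2.43 in OXNAC33, against -3.12, -2.89, -2.60 and -2.10 in Control, and its difference of -1.34 did not pass (unadjusted p = 0.0576, adjusted p = 0.636). Its array order resembled that of UFGT, with OXNAC33 replicates 1 and 2 lowest. VIT_16s0022g01970, an anthocyanidin 3-O-glucosyltransferase, had a difference of -1.21 (adjusted p = 0.675).

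The MYB regulators of the pathway gave no call. Of 5 genes, 4 were tested and 0 passed an unadjusted p of 0.05 in limma, 1 with a higher and 3 with a lower mean in OXNAC33. MYBPA1 (VIT_15s0046g00170), an activator of proanthocyanidin synthesis, stood at -6.89, -3.26, -2.87 and -2.63 in OXNAC33, against -2.59, -3.04, -3.23 and -2.53 in Control. On OXNAC33 replicate 1, the array with the lowest chalcone synthases, MYBPA1 was not well above background, and the other 3 OXNAC33 arrays lay close to the Control range (log2 difference -1.07, adjusted p = 0.736). MYBPA2 (VIT_11s0016g01320), a relative of MYBPA1, had a difference of -0.28 (adjusted p = 0.862). MYB113 (VIT_02s0033g00400) was not well above background on any array.

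**Figure D4:**
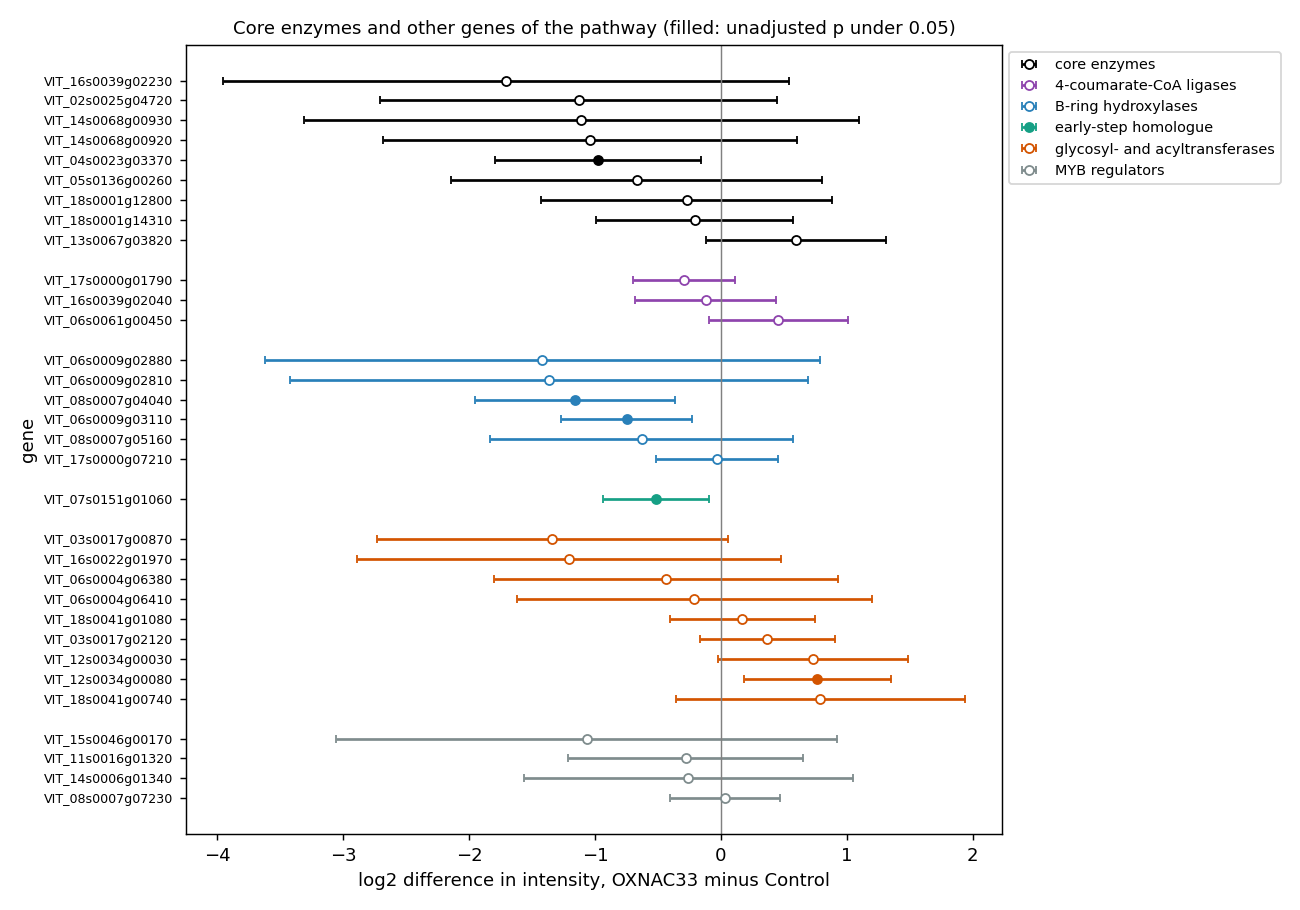
Log2 difference, OXNAC33 minus Control, with its 95% interval from limma, for the core enzymes and the other tested genes of the pathway lists, sorted within each list. Filled points had an unadjusted p under 0.05. All 6 hydroxylases, of which the 2 filled ones are not independent evidence, lie left of 0. The glycosyl- and acyltransferases lie on both sides.

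Genes of leaf photosynthesis, which mark the tissue, are set beside these results. All 6 genes of a photosynthesis list were well above background on all arrays, and 5 of 6 had a lower mean in OXNAC33, as 45.2% of all probes did. The 2 called lower by the looser rule (3.11% of all probes), LHCA1 and LHCB3, are among 4 that the study listed from these same arrays. Neither these calls nor the count of 5 of 6 is therefore independent evidence. The 2 genes not so listed lay on either side of 0 and did not pass, with log2 differences of 0.35 for ATPC1 (VIT_19s0090g00480, limma adjusted p = 0.782) and -0.30 for PSB27 (VIT_05s0020g03440, adjusted p = 0.739). The summed linear level of all 6, relative to the 75th percentile, lay between 61.5 and 112.9 in OXNAC33 and between 112.8 and 168 in Control, so the groups overlapped slightly. That sum includes the 4 genes listed from these arrays, so it is not independent evidence either. The light-harvesting gene LHCB3 (VIT_00s0181g00180) stood at 0.55, 1.53, 2.60 and 2.73 in OXNAC33, against 2.77, 3.73, 3.78 and 4.17 in Control, again with OXNAC33 replicates 1 and 2 lowest (log2 difference -1.76, limma adjusted p = 0.636). Of 3 markers of woody tissue, 2 were tested and 0 passed, with a summed level of 0.309 to 0.532 in OXNAC33 and 0.354 to 0.791 in Control, and 1 laccase was not well above background on any array. In whole leaves, fewer cells that make a transcript and less transcript per cell cannot be told apart, and the part of the leaf's cell makeup in these results was not tested.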

How the data were processed

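Transcript levels were measured on 8 custom Agilent 4-pack arrays, 4 of OXNAC33 and 4 of Control leaves, grouped and numbered by sample title. Per the file headers, the authors extracted each array with Agilent Feature Extraction, and they deposited for each spot a processed linear intensity, background-subtracted and detrended but unscaled between arrays. The authors also deposited a table of intensity for 24631 probes. Dividing it by the processed intensity gave 1 constant per array to within 0.1% for 100% of probes, so scale and direction are known, though the rule for choosing these probes is not. Other deposited columns are marks for spots well above background, outlying or saturated. Columns of other samples: 0.

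Here, log2 intensity was taken relative to the 75th percentile of each array. Outlying spots (140) were left out. The test took probes marked well above background on 4 or more of 8 arrays. Groups were compared with limma 3.58.1 (R 4.3.3) with no term but group, and p-values adjusted by Benjamini-Hochberg over all 26579 probes, and single genes also by a two-sided exact permutation test over 70 relabellings. The procedure was tested on simulated data with the spread of the real probes. Figures were drawn with matplotlib 3.10.9. The number of arrays limits the precision. Each array stood for 1 plant.

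Replicate numbers were taken to pair the arrays, because deviations from the group mean of same-numbered arrays correlated across probes at 0.49, 0.25, 0.50 and 0.10 for replicates 1 to 4, the last of these only just above the limit of 0.1. No source says what the numbers mark. The main limma fit and the exact permutation test left out this pairing of arrays, which entered as the replicate block. Alternatives were another background correction, other scalings, the authors' table, other filters, scan date, slide and replicate as blocks, the methods' t-test, and each array left out. Genes named were the 9 enzymes, genes of the other lists past the looser rule, up to 2 further genes per list with the widest difference, and the 5 probes most alike. The ligase VIT_16s0039g02040 was named as well, for its order over the arrays. The enzymes and lists were chosen with earlier results of these data known. Names come from the study's tables. The reference annotation is of another assembly, so coordinates are not given, and columns of the authors' own comparisons were not used.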

Additional observations from a re-analysis of the deposited data

Results flagged for a closer look

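Among 92 groups of 4 arrays examined (the tested genes of all lists and the 5 probes most alike, in each group), 2 held an array whose gap to its nearest neighbour took up a larger part of the group's range than the 95% critical value of Dixon's test allows, where chance would give about 4.6.

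MYBPA1 (VIT_15s0046g00170) on OXNAC33 replicate 1 was at -6.89, not well above background, and the other 3 OXNAC33 arrays lay between -3.26 and -2.63 (share of the range 0.852). The anthocyanidin 3-O-glucosyltransferase VIT_16s0022g01970 on the array labelled OXNAC33 replicate 4 was at -2.60, and the other 3 OXNAC33 arrays lay between -5.80 and -5.45 (share 0.889). In none of the 9 core enzymes did a single array stand apart by this measure in either group.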

How the results depend on the processing

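Under all 21 alternatives and subsets tried, 0 of the 9 core enzymes passed the adjusted threshold. The sign of the difference held in these settings for CHS2, CHS3, F3H1, LDOX, UFGT and CHI, but not its size. On scan dates 2 and 3 alone, a subset added after the data were seen, CHS2 and CHS3 were near 0, at -0.05 and -0.03, and the log2 difference turned to 0.13 for CHS, 0.058 for F3H and 0.23 for DFR. Without OXNAC33 replicate 1 the difference was -0.40 for CHS2, -0.14 for CHS, -0.12 for CHS3, -0.67 for F3H1, -0.58 for LDOX and -0.93 for UFGT. Leaving out 1 array in turn gave F3H between -0.45 and 0.00 (0.00376 without OXNAC33 replicate 2) and DFR between -0.72 and 0.11 (above 0 without OXNAC33 replicate 1).

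The count of core enzymes lower by the looser rule was 1. It was 2 with scan date as a block, 0 with the slide as a random block, 3 on scan date 1 alone, and between 0 and 3 with 1 array left out (0 without OXNAC33 replicate 2 or Control replicates 1, 2 or 4, and 3 without OXNAC33 replicate 3). The count higher was 0 and between 0 and 1 with 1 array left out (1, CHI, without Control replicate 1). With the replicate block the count lower was 1 and the count higher 0.

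Over all probes, the adjusted count was 0, was 2 with the replicate block and lay between 0 and 2 with 1 array left out (2 without OXNAC33 replicate 2). The counts higher and lower by the looser rule were 643 and 826. They were 1043 and 1311 with the replicate block, 1037 and 1366 with scan date as a block, 415 and 511 by the methods' t-test (0 after adjustment), 376 and 384 on scan dates 2 and 3 and 2966 and 2622 on scan date 1. With normexp background correction 294 were higher. With 1 array left out they lay between 328 and 1280 and between 523 and 1356. The highest counts came without OXNAC33 replicates 3 (higher) and 4 (lower), and the lowest without OXNAC33 replicate 1 (higher) and Control replicate 2 (lower). VviNAC33 lay between 0.56 and 1.32 and passed the adjusted threshold in no setting. With 4 arrays per group and the spread seen among OXNAC33 plants, the intervals of CHS2, CHS, LDOX and UFGT span more than 3 on the log2 scale. The cause of these changes was not tested.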
